A study of Homo sapiens with 9 samples.

Results

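The genes described here make and display the peptide antigens of MHC class I, and their RNA was sequenced in A549, a widely used human cell line derived from a lung adenocarcinoma. They are 9 genes chosen by name: HLA-B, HLA-C, HLA-E, B2M, TAP1, TAP2, TAPBP, PSMB8 and PSMB9, which is 9 of the 51796 genes in the count table. The 9 libraries formed 3 groups of 3 replicates: a knockdown of PRMT5, a knockdown of MEP50 (the product of WDR77), and a control in which the hairpin was aimed at GFP. All cells were grown in RPMI with 10% serum, carried a stably expressed short hairpin RNA and were kept under puromycin, so that selection was common to the 3 groups. The labels name 1 target per group and no second hairpin, so an effect of the hairpin or of the selected line cannot be told apart from loss of its target. They call the samples biological replicates without saying whether these were separate cultures, so the p-values below measure the spread between these libraries.

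Nucleated cells cut their proteins with the proteasome, and in inflamed or interferon-treated tissue the subunits PSMB8, PSMB9 and PSMB10 replace the constitutive subunits PSMB5, PSMB6 and PSMB7 in its catalytic core. The TAP1 and TAP2 transporter moves the resulting peptides into the endoplasmic reticulum, where tapasin, encoded by TAPBP, helps load them on a heavy chain that is paired with beta-2-microglobulin, encoded by B2M. HLA-B and HLA-C show peptides to cytotoxic T cells, and HLA-E is read mainly by the CD94 and NKG2 receptors of natural killer cells. The promoters of many of these genes hold sites for interferon regulatory factors (IRF), for NF-kB and for the complex that recruits NLRC5, the class I transactivator.

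The RefSeq promoter table (GRCh38.p14) held 8 of the 9 genes, all except HLA-E. The windows below end at the base before the start of transcription and are 250 bases long, and 4 are shown because 3 belong to the genes that were higher in the PRMT5 knockdown and the remaining one, of TAP1, faces that of PSMB9. Capitals mark matches on either strand to an IRF-like motif, GAAANNGAA or GAANNGAAA, or to an NF-kB-like motif, GGGNNTTTC.
PSMB9, chr6:32853942-32854191, plus strand: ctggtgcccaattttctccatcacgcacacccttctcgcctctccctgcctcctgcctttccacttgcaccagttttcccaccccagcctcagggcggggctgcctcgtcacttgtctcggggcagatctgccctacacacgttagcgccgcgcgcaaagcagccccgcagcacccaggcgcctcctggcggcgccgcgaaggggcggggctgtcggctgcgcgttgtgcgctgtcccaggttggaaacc
TAP1, chr6:32853705-32853954, minus strand: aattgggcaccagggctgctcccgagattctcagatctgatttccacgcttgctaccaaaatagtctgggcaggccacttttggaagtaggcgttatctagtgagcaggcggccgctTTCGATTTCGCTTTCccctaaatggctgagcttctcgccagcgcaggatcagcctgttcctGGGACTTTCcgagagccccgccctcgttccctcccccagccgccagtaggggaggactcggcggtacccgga
B2M, chr15:44711267-44711516, plus strand: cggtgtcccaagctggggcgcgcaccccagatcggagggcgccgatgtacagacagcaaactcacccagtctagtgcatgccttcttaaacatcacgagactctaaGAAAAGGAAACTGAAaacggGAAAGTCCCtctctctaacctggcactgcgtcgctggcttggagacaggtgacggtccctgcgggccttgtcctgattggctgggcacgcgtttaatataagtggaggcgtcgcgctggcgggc
TAPBP, chr6:33314079-33314328, minus strand: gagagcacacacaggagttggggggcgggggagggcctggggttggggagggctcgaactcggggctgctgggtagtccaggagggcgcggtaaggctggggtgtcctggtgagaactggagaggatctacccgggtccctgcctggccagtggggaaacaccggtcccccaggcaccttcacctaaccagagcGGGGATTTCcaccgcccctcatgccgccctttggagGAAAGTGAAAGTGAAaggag
The starts of PSMB9 and TAP1 used here lie 488 bases apart on opposite strands, and RefSeq listed 2 starts for TAP1. TAP1, B2M and TAPBP each held 2 overlapping copies of GAAANNGAA and 1 copy of GGGNNTTTC, and these letters were not in the PSMB9 window. The TAP1 copies lie between these starts of TAP1 and PSMB9, beyond the 250 bases printed for PSMB9. The TAP1 copies of the IRF-like motif began 133 and 127 bases before the start, those of B2M 144 and 138 bases, and those of TAPBP 20 and 14 bases. In the windows that are not shown, HLA-B and HLA-C held 1 copy of GAANNGAAA each, and TAP2 held 1 copy of each IRF-like motif, overlapping each other. None of these windows held GGGNNTTTC, and PSMB8 held none of the 3 motifs. GGGNNTTTC is a single pattern and other forms of NF-kB site were not searched. A window without it is therefore not shown to lack an NF-kB site. Over all 35116 windows of the same length, 12.4% held at least 1 of the IRF-like motifs and 4.16% held the NF-kB-like motif. The IRF-like motifs were chosen after a first motif had missed known sites. Their presence in the class I windows beside that share is therefore no result.

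Reads on genes numbered 20806181 to 31586128 per library. PRMT5 stood at 68.9 ± 1.33 CPM (counts divided by the TMM-scaled library size) in the PRMT5 knockdown, 203.7 ± 6.35 in the MEP50 knockdown and 208.5 ± 3.17 in the GFP control (SD, n = 3 each), and WDR77 at 44.1 ± 2.52 CPM in the PRMT5 knockdown, 12.5 ± 1.58 CPM in the MEP50 knockdown and 39.4 ± 0.225 CPM in the GFP control, so each target was lowest in its own group. Of 9 markers fixed for the line, 4 had enough reads to be tested. KRT8, KRT18 and CDH1 were among these, while EPCAM lay at or below 0.226 CPM in each group and the surfactant gene SFTPB had no read. The summed level of that list was 4154 to 4313 CPM in the PRMT5 knockdown, 3870 to 4147 CPM in the MEP50 knockdown and 6345 to 6576 CPM in the GFP control, and KRT8 and KRT18 made up nearly all of it. CDH1 went the other way in the MEP50 knockdown, with 34.9 ± 2.45 CPM in the PRMT5 knockdown, 75.6 ± 8.5 CPM in the MEP50 knockdown and 40.1 ± 1.64 CPM in the GFP control, and KRT7 averaged 3.24 CPM in the PRMT5 knockdown, 4.19 CPM in the MEP50 knockdown and 2.52 CPM in the control. A list of 12 leukocyte markers summed to 22.7 to 26.4 CPM in the PRMT5 knockdown, 25.4 to 28.9 CPM in the MEP50 knockdown and 16.1 to 17.4 CPM in the GFP control, carried mostly by CD68 with means of 23.2 CPM in the PRMT5 knockdown, 26.9 CPM in the MEP50 knockdown and 15.7 CPM in the GFP control, with CD3E, MS4A1 and NKG7 at 0 in all 9 libraries. Of 8 endothelial and fibroblast markers 2 were tested, and their list summed to 10.5 to 11.5 CPM in the PRMT5 knockdown, 25.9 to 27.7 CPM in the MEP50 knockdown and 11.0 to 13.4 CPM in the GFP control. Its main part was COL1A1, at 10.4 CPM in the PRMT5 knockdown, 18.8 CPM in the MEP50 knockdown and 6.88 CPM in the control, and LUM, at 0.629 CPM in the PRMT5 knockdown, 7.9 CPM in the MEP50 knockdown and 5.17 CPM in the control. CDH5, VWF, KDR and DCN lay at or below 0.117 CPM in each group. The 9 markers of professional antigen presenting cells summed to 1.78 to 4.07 CPM across all libraries, with HLA-DRA, HLA-DPB1 and CD86 at 0. The part of these marker differences in the results below was not tested. In bulk RNA fewer cells of a kind and less RNA per cell cannot be told apart.

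PSMB9 was the class I gene that differed most, with a 4.35-fold higher level in the PRMT5 knockdown and above the control in the MEP50 knockdown as well. B2M and TAPBP were slightly higher in the PRMT5 knockdown and were not called in the MEP50 knockdown, and TAP1 and HLA-E were not called in any comparison. HLA-B, HLA-C, TAP2 and PSMB8 had too few reads for a test. A gene was called when its p in the quasi-likelihood test of edgeR, adjusted after Benjamini and Hochberg over 14582 genes, was below 0.05. Of the 9 genes, 5 had enough counts to be tested. In the PRMT5 knockdown against the GFP control, 3 of these 5 were called higher and 0 lower, and 51.0% of all tested genes were called (26.1% higher and 24.9% lower). The median log2 fold change was 0.17 over the 5 genes and 0.00 over all tested genes. In the MEP50 knockdown against the same control, 1 of the 5 was called higher and 0 lower, beside 51.7% of all tested genes (26.5% higher and 25.2% lower), with a median of 0.07 over the 5 genes. Both comparisons use the same 3 control libraries. Between the PRMT5 and the MEP50 knockdown, 2 of the 5 were called higher and 0 lower, beside 39.7% of all tested genes (19.2% higher and 20.5% lower), with a median of 0.18 over the 5 genes. At an unadjusted p below 0.05, 0 of the 5 genes were lower in edgeR in any of the 3 comparisons, and DESeq2 called 0 lower.

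**Figure D1:**
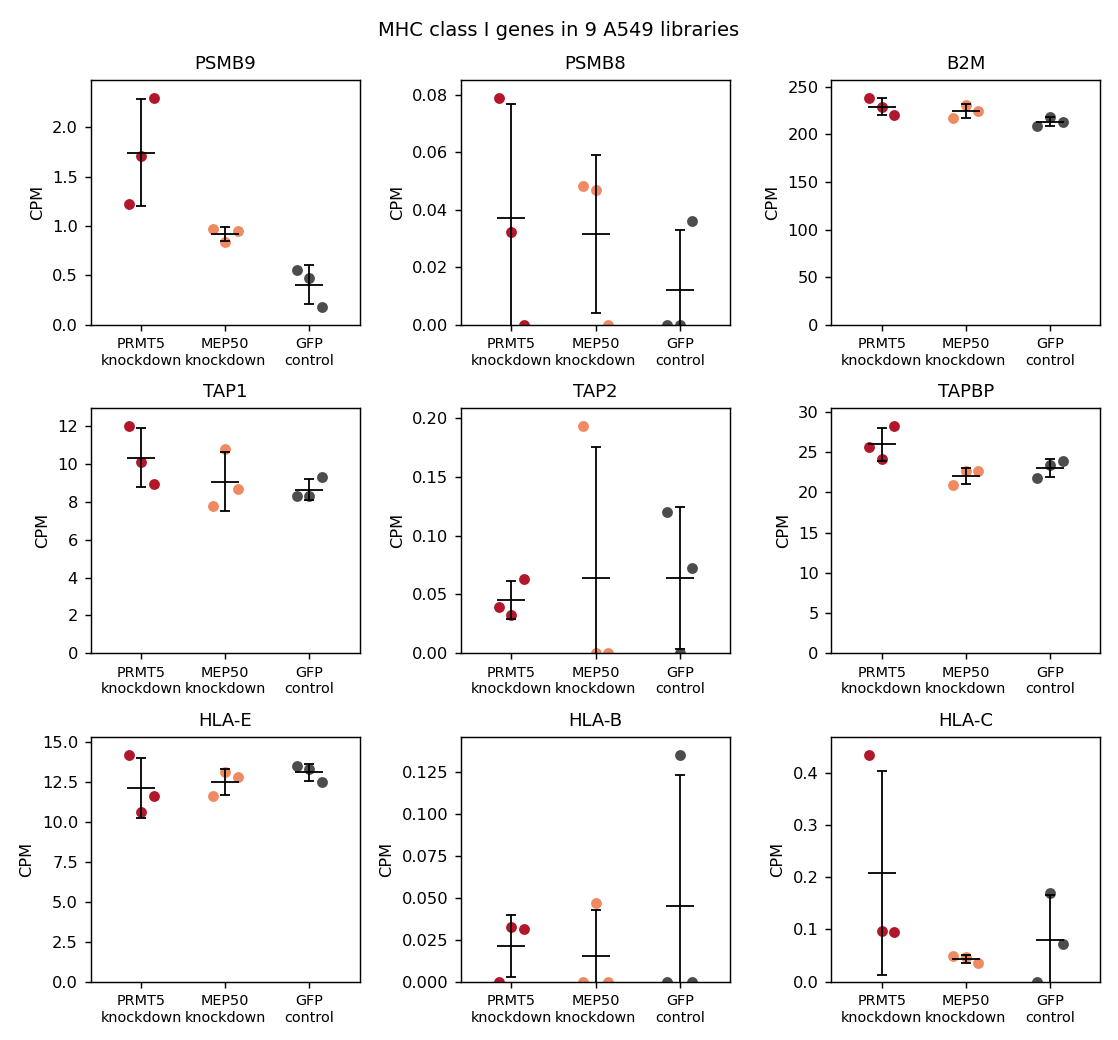
Level of each of the 9 class I genes in CPM (vertical axes, from 0, scaled for each gene) in the 3 libraries of the PRMT5 knockdown, MEP50 knockdown and GFP control. Points are libraries, and the bar with whiskers is the mean ± SD. PSMB9 separates the 3 groups, the B2M libraries lie between 209.1 and 238.4 CPM, and HLA-B, HLA-C, TAP2 and PSMB8 lie below 0.5 CPM in every library.

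The peptide-generating subunit PSMB9 (ENSG00000240065, on chromosome 6 inside the MHC class II region, beside TAP1) was counted with 31, 53 and 73 reads in the PRMT5 knockdown libraries, 20, 18 and 27 reads in the MEP50 knockdown libraries, and 14, 14 and 5 reads in the GFP control libraries. The levels were 1.22, 1.71 and 2.30 CPM in the PRMT5 knockdown, 0.967, 0.842 and 0.951 CPM in the MEP50 knockdown, and 0.559, 0.472 and 0.181 CPM in the control. The 3 groups did not overlap: every PRMT5 knockdown library lay above every MEP50 knockdown library, and every one of these above every control library. The level averaged 1.75 ± 0.541 CPM in the PRMT5 knockdown, 0.92 ± 0.0682 CPM in the MEP50 knockdown and 0.404 ± 0.198 CPM in the GFP control (SD, n = 3 each). PSMB9 rose 4.35-fold in the PRMT5 knockdown over the control (log2 fold change 2.12 ± 0.359 SE, adjusted p = 3.90e-06). Leaving out 1 library at a time gave log2 values of 1.76 to 2.39, all called. In the MEP50 knockdown it rose 2.28-fold over the control (log2 1.19 ± 0.399 SE, adjusted p = 0.0116), and without GFP control replicate 3, the library with 5 reads, the log2 value was 0.84 with an adjusted p of 0.0907. Between the knockdowns it was 1.91-fold higher in the PRMT5 knockdown (log2 0.93 ± 0.322 SE, adjusted p = 0.0192). That difference was lost without PRMT5 knockdown replicate 3 (0.67, adjusted p = 0.176) and without MEP50 knockdown replicate 2 (0.86, adjusted p = 0.0672), and lay at the threshold without MEP50 knockdown replicate 3 (0.96, adjusted p = 0.05). Counting alone gave the ratio of summed levels as 4.45 in the PRMT5 knockdown (95% exact interval 3.04 to 6.69, from 157 and 33 reads) and 2.30 in the MEP50 knockdown (1.49 to 3.61, from 65 and 33 reads), an interval that covers counting error only. In the annotation, 5.66% of the exon bases of PSMB9 were overlapped on the same strand by PSMB8-AS1, and the part of those reads in its count was not tested.

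The authors' deposited table for the PRMT5 knockdown listed PSMB9 with a log2 fold change of 1.31 by DESeq2 and 2.12 by edgeR, and B2M with 0.10 by both tools. TAPBP, called here in the PRMT5 knockdown, was not listed there. In the authors' deposited table for the MEP50 knockdown, PSMB9 had log2 fold changes of 0.66 by DESeq2 and 1.19 by edgeR, and it was the only one of the 9 genes listed. Both tables hold no gene with an adjusted p above 0.05 by DESeq2 or an FDR above 0.0487 by edgeR. The reason for the gap between the 2 tools in PSMB9 was not tested.

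The other subunits of the catalytic core had smaller log2 values. PSMB10, the inducible partner of PSMB7, averaged 13.9 ± 1.10 CPM in the PRMT5 knockdown, 12.9 ± 1.19 CPM in the MEP50 knockdown and 13.1 ± 0.528 CPM in the GFP control, and was called in neither (log2 0.09, adjusted p = 0.431, for the PRMT5 knockdown, and −0.03, adjusted p = 0.821, for the MEP50 knockdown). The 3 constitutive subunits were called lower in both knockdowns. PSMB6, which PSMB9 replaces, fell by 0.28 ± 0.0337 (log2, SE) in the PRMT5 knockdown (adjusted p = 3.51e-09) and by 0.10 ± 0.0339 in the MEP50 knockdown (adjusted p = 0.0113). The log2 fold change of PSMB7 was −0.17 in the PRMT5 knockdown (adjusted p = 0.00017) and −0.12 in the MEP50 knockdown (adjusted p = 0.00839), and that of PSMB5 was −0.09 for the PRMT5 knockdown (adjusted p = 0.0357) and −0.11 for the MEP50 knockdown (adjusted p = 0.00868). The calls of PSMB5 and of PSMB6 in the MEP50 knockdown were not stable to the removal of single libraries. PSMB5 was lost in the PRMT5 knockdown without PRMT5 knockdown replicates 2 or 3 (−0.08 in both) or GFP control replicates 1 (−0.07) or 2 (−0.09), and in the MEP50 knockdown without MEP50 knockdown replicate 3 (−0.08) or GFP control replicate 1 (−0.09). PSMB6 was lost in the MEP50 knockdown without MEP50 knockdown replicate 1 (−0.07) or GFP control replicate 3 (−0.09).

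Set against PSMB6 per kilobase of exon, PSMB9 was a minor transcript in all groups. It made up 0.90, 1.27 and 1.70% of the PSMB6 level in the PRMT5 knockdown libraries, 0.654, 0.541 and 0.61% in the MEP50 knockdown libraries and 0.343, 0.29 and 0.108% in the control libraries. The groups did not overlap, with means of 1.29 ± 0.402% in the PRMT5 knockdown, 0.602 ± 0.0568% in the MEP50 knockdown and 0.247 ± 0.123% in the GFP control (SD, n = 3 each). An exact two-sided permutation test gave p = 0.1 for each pair of groups, the smallest value that 3 against 3 libraries allow. PSMB10 relative to PSMB7 was higher, at 9.85 ± 0.702% in the PRMT5 knockdown, 8.76 ± 0.752% in the MEP50 knockdown and 8.22 ± 0.412% in the GFP control, with exact permutation p = 0.1 for the PRMT5 knockdown and 0.4 for the MEP50 knockdown against the control.

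**Figure D2:**
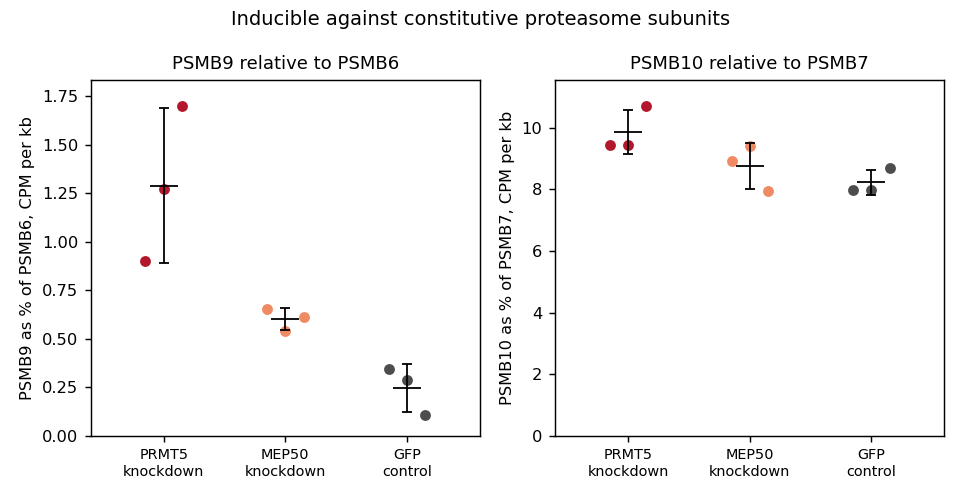
Level of an inducible catalytic subunit as a percent of its constitutive counterpart (vertical axes, both in CPM per kilobase of exon) in each library of the PRMT5 knockdown, MEP50 knockdown and GFP control, with mean ± SD. PSMB9 averages 1.29% of PSMB6 in the PRMT5 knockdown, 0.602% in the MEP50 knockdown and 0.247% in the control, while PSMB10 lies between 7.94% and 10.7% of PSMB7 in all 9 libraries.

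B2M (ENSG00000166710, chromosome 15), the light chain shared by all class I molecules, was the most abundant of the 9 per kilobase of exon, with 96.4 ± 3.78 CPM per kilobase in the PRMT5 knockdown, 94.4 ± 2.91 in the MEP50 knockdown and 89.8 ± 1.97 in the GFP control. Per library it had 238.4, 229.1 and 220.4 CPM in the PRMT5 knockdown, 217.4, 231.2 and 225.1 CPM in the MEP50 knockdown and 209.1, 218.4 and 213.0 CPM in the control. The PRMT5 knockdown and control libraries did not overlap, and 1 MEP50 knockdown library lay inside the control range. The rise in the PRMT5 knockdown was 1.07-fold (log2 0.10 ± 0.0322 SE, adjusted p = 0.0076). It was not called without PRMT5 knockdown replicate 1 (0.06, adjusted p = 0.159) or GFP control replicate 1 (0.08, adjusted p = 0.0734). The MEP50 knockdown value was 0.07 ± 0.0325 (adjusted p = 0.0587), and it was called in the fit that left out MEP50 knockdown replicate 1 (0.10, adjusted p = 0.0151) and in the one that left out PRMT5 knockdown replicate 3 (0.08, adjusted p = 0.0367). The knockdowns differed from each other by 0.03 on the log2 scale (95% interval −0.03 to 0.09, adjusted p = 0.507).

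TAPBP (ENSG00000231925), which encodes the loading chaperone tapasin, had 25.6, 24.1 and 28.2 CPM in the libraries of the PRMT5 knockdown, 20.9, 22.6 and 22.6 CPM in the MEP50 knockdown libraries and 21.8, 23.4 and 23.9 CPM in the control libraries. All 3 PRMT5 knockdown libraries lay above the other 6. Its log2 fold change was 0.17 ± 0.0725 (SE) in the PRMT5 knockdown over the control (1.13-fold, adjusted p = 0.0459) and −0.06 ± 0.0754 in the MEP50 knockdown (adjusted p = 0.525). The PRMT5 knockdown call lay close to the threshold: DESeq2 gave 0.17 with an adjusted p of 0.0906, and 12 of 17 alternatives lost it, including the removal of 7 single libraries (all except PRMT5 knockdown replicate 2 or MEP50 knockdown replicate 1), with values of 0.10 to 0.19. The difference between the knockdowns was 0.23 ± 0.0741 (adjusted p = 0.0107), and it was not called without PRMT5 knockdown replicate 3 (0.16, adjusted p = 0.133) or MEP50 knockdown replicate 1 (0.19, adjusted p = 0.064).

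TAP1 (ENSG00000168394), which encodes the peptide transporter chain and lies beside PSMB9, had 12.0, 10.1 and 8.93 CPM in the libraries of the PRMT5 knockdown, 7.78, 10.8 and 8.67 CPM in the MEP50 knockdown libraries and 8.34, 8.33 and 9.31 CPM in the control libraries. The groups overlapped. Its log2 fold change was 0.25 ± 0.12 (SE) in the PRMT5 knockdown (95% interval 0.01 to 0.48, adjusted p = 0.0811) and 0.07 ± 0.125 in the MEP50 knockdown (−0.18 to 0.31, adjusted p = 0.685). Without PRMT5 knockdown replicate 3 the first value was 0.34 with an adjusted p of 0.0266. The 95% intervals in the PRMT5 knockdown, 0.01 to 0.48 for TAP1 and 1.42 to 2.82 for PSMB9, did not overlap. HLA-E (ENSG00000204592), the heavy chain read by natural killer receptors, had 14.2, 10.6 and 11.6 CPM in the PRMT5 knockdown, 11.6, 13.1 and 12.8 CPM in the MEP50 knockdown and 13.5, 13.3 and 12.5 CPM in the control, again with overlapping groups. Its log2 fold change was −0.12 ± 0.10 in the PRMT5 knockdown (95% interval −0.31 to 0.08, adjusted p = 0.345) and −0.06 ± 0.102 in the MEP50 knockdown (−0.26 to 0.14, adjusted p = 0.631). Per kilobase of exon these genes stood in the order B2M, TAPBP, HLA-E, TAP1 and PSMB9 in every group. In the GFP control the levels of the last 4 were 5.49 ± 0.255, 5.04 ± 0.204, 2.93 ± 0.19 and 0.439 ± 0.215 CPM per kilobase. TAPBP and HLA-E differed by less than the sum of their SDs in the GFP control and in the MEP50 knockdown (5.26 ± 0.233 and 4.81 ± 0.297 CPM per kilobase), and HLA-E and TAP1 in the PRMT5 knockdown (4.66 ± 0.701 and 3.50 ± 0.531 CPM per kilobase).

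**Figure D3:**
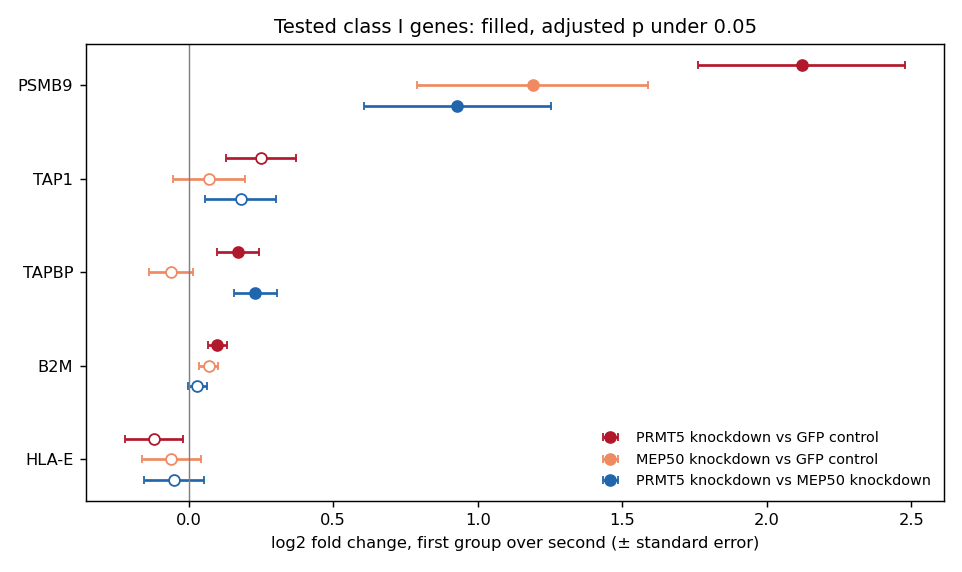
Log2 fold change (horizontal axis, ± SE, first group over second) of the 5 tested class I genes in the PRMT5 knockdown over the GFP control, the MEP50 knockdown over the GFP control and the PRMT5 over the MEP50 knockdown. Filled points had an adjusted p below 0.05 in edgeR's quasi-likelihood test. PSMB9 lies at 2.12, 1.19 and 0.93 in these comparisons, and every other value lies between −0.12 and 0.25.

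**Figure D4:**
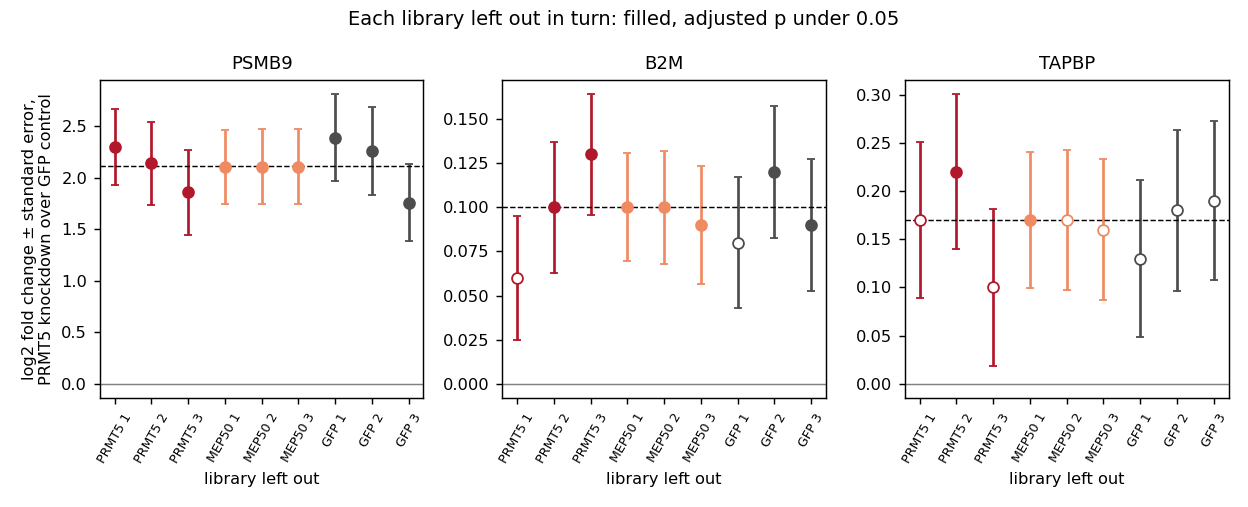
Log2 fold change (vertical axis, ± SE) in the PRMT5 knockdown over the GFP control when each of the 9 libraries was left out in turn (horizontal axis, coloured by group), for PSMB9, B2M and TAPBP. The dashed line is the value with all libraries, and filled points had an adjusted p below 0.05. PSMB9 stays filled between 1.76 and 2.39, B2M loses its call without PRMT5 knockdown replicate 1 or GFP control replicate 1, and TAPBP keeps it only without PRMT5 knockdown replicate 2 or MEP50 knockdown replicate 1.

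The classical heavy chains HLA-B and HLA-C, the transporter chain TAP2 and the inducible subunit PSMB8 were listed with almost no reads. HLA-B had 0, 1 and 1 reads in the PRMT5 knockdown libraries, 0, 1 and 0 in the MEP50 knockdown libraries and 0, 4 and 0 in the control libraries. HLA-C had 11, 3 and 3 reads in the PRMT5 knockdown libraries, 1, 1 and 1 in the MEP50 knockdown libraries and 0, 5 and 2 in the control libraries. Its highest count, in 1 PRMT5 knockdown library, made up 11 of the 17 reads of that group, and the groups overlapped against the control. TAP2 had 1, 1 and 2 reads in the PRMT5 knockdown libraries, 4, 0 and 0 in the MEP50 knockdown libraries and 3, 0 and 2 in the control libraries. PSMB8 had 2, 1 and 0 reads in the PRMT5 knockdown libraries, 1, 1 and 0 in the MEP50 knockdown libraries and 0, 0 and 1 in the control libraries. At these counts no difference was detectable: without the low-count filter edgeR called none of the 4 in any comparison. DESeq2 gave an adjusted p only for HLA-C against the control, 0.403 for the PRMT5 knockdown and 0.654 for the MEP50 knockdown, and none for the other genes. The HLA-C value of the PRMT5 over the MEP50 knockdown in edgeR, log2 2.12, had an unadjusted p of 0.0301 and an adjusted p of 0.122. The summed HLA-C reads, 17 in the PRMT5 knockdown against 3 in the MEP50 knockdown, gave a ratio of 4.54 (95% interval from counting 1.31 to 24.2). The pooled level of HLA-B was at most 0.0486 CPM in any group, with an upper 95% Poisson limit of 0.124 CPM in the GFP control.

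These low counts do not show that the transcripts were absent. In the GENCODE annotation, 32.3% of the exon bases of TAP2 were overlapped on the same strand by AL669918.1, and 31.3% of its 50-base words also occurred in other genes. For HLA-B, HLA-C and PSMB8 the shares of 50-base words found in other genes were 2.72, 5.38 and 0%, and 18.9, 1.40 and 20.6% of their exon bases were overlapped by a gene on either strand. The summary line for reads with more than 1 alignment was 0 in all 9 libraries, and whether such reads were removed before the counting was not tested. Of the protein-coding genes within 1 megabase of HLA-B, 45 of 100 had enough reads to be tested, and 49 had under 30 reads. Around PSMB8, 34 of 73 were tested and 34 had under 30 reads. No share over all protein-coding genes stands beside these counts, so they cannot show whether reads of the region were lost. Whether reads of HLA-B or HLA-C were lost because the alleles of A549 differ from the reference genome, or because the alignment index held alternative MHC haplotypes, was not tested.

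Among other class I and class I-like heavy chains, 0 rose in the PRMT5 knockdown by edgeR and 3 fell. At an unadjusted p below 0.05, 1 was higher, and DESeq2 called 0 higher. Here and in the lists that follow, values with ± are log2 fold changes over the GFP control with their SE, unless they are given in CPM with SD, and the median over all tested genes was 0.00 for both knockdowns. The counts of each list are to be read beside the shares of all tested genes that were called, 26.1% higher and 24.9% lower in the PRMT5 knockdown, with 26.5% higher and 25.2% lower in the MEP50 knockdown. Where a gene is given a value in 1 knockdown only, it was not called in the other. In this list 12 of 15 matched genes were tested, and the median log2 fold change was −0.11 for the PRMT5 knockdown and −0.04 for the MEP50 knockdown, in which 3 rose and 3 fell. HFE, which binds the transferrin receptor and pairs with beta-2-microglobulin, stood at 19.5 ± 1.49 CPM in the PRMT5 knockdown, 20.8 ± 0.43 CPM in the MEP50 knockdown and 27.4 ± 3.05 CPM in the GFP control. It fell by 0.50 ± 0.0783 in the PRMT5 knockdown and by 0.40 ± 0.0796 in the MEP50 knockdown on the log2 scale. PROCR, the protein C receptor with a class I-like fold, fell by 0.29 ± 0.0389 in the PRMT5 knockdown and by 0.22 ± 0.0395 in the MEP50 knockdown. RAET1E, a ligand of the activating receptor NKG2D, fell by 0.30 ± 0.103 in the PRMT5 knockdown (adjusted p = 0.0131), a call that was lost without PRMT5 knockdown replicate 2 (−0.25, adjusted p = 0.0799). Ligands of NKG2D moved both ways in the MEP50 knockdown: ULBP1 rose by 0.54 ± 0.135, although its libraries overlapped those of the control, and MICB fell by 0.72 ± 0.163. MR1, which presents microbial vitamin B metabolites, rose by 0.39 ± 0.094 there.

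Genes of peptide loading and trimming were called in both directions. Of 18 tested, 7 rose and 5 fell in the PRMT5 knockdown, and 8 rose and 7 fell in the MEP50 knockdown, with a median of 0.05 in the PRMT5 knockdown and of 0.10 in the MEP50 knockdown. ERAP1, the aminopeptidase that trims peptides in the endoplasmic reticulum, reached 37.6 ± 2.08 CPM in the PRMT5 knockdown and 35.9 ± 2.50 CPM in the MEP50 knockdown, against 21.5 ± 0.395 CPM in the GFP control. That is a rise of 0.81 ± 0.0659 (adjusted p = 1.17e-13) in the PRMT5 knockdown and of 0.75 ± 0.0674 in the MEP50 knockdown (adjusted p = 2.02e-12). CNPY3, a chaperone of the same compartment, rose by 0.21 ± 0.0582 in the PRMT5 knockdown and by 0.31 ± 0.059 in the MEP50 knockdown. CALR, the calreticulin of the loading complex, fell by 0.19 ± 0.0257 in the PRMT5 knockdown and by 0.13 ± 0.0257 in the MEP50 knockdown. BCAP31, an export receptor for class I molecules, fell by 0.21 ± 0.0304 in the PRMT5 knockdown and by 0.26 ± 0.0308 in the MEP50 knockdown. SEC61B, a subunit of the translocon, fell by 0.30 ± 0.0462 in the PRMT5 knockdown. In the MEP50 knockdown the peptide-destroying peptidase THOP1 fell by 0.32 ± 0.0461 and the disulfide isomerase PDIA4 rose by 0.19 ± 0.0283. The aminopeptidase LNPEP and the chaperone HSPA5 each moved in opposite directions in the 2 knockdowns. LNPEP rose by 0.18 ± 0.0409 in the PRMT5 knockdown and fell by 0.43 ± 0.0431 in the MEP50 knockdown. HSPA5 rose by 0.08 ± 0.0253 in the PRMT5 knockdown and fell by 0.32 ± 0.0255 in the MEP50 knockdown, and all 4 of these values were called.

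Proteasome genes were also called in both directions. Of 24 tested, PSMB10 and the constitutive subunits included, 5 rose and 6 fell in the PRMT5 knockdown and 3 rose and 8 fell in the MEP50 knockdown, with a median of −0.02 in the PRMT5 knockdown and of −0.03 in the MEP50 knockdown. The constitutive subunits described above, PSMB5, PSMB6 and PSMB7, are 3 of the lower calls in each knockdown. PSME2, a subunit of the interferon-inducible PA28 cap, rose by 0.26 ± 0.0433 in the PRMT5 knockdown (84.4 ± 3.69 CPM, against 70.3 ± 0.903 CPM in the control) and by 0.24 ± 0.0441 in the MEP50 knockdown. Its partner PSME1 rose by 0.12 ± 0.0436 in the PRMT5 knockdown and by 0.34 ± 0.0439 in the MEP50 knockdown. The first of these calls was lost without PRMT5 knockdown replicates 1 (0.08) or 2 (0.11) or GFP control replicates 1 (0.11) or 3 (0.12). The assembly chaperone PSMG1 rose by 0.22 ± 0.0497 in the PRMT5 knockdown and by 0.23 ± 0.0506 in the MEP50 knockdown. PSME4, the PA200 activator, fell by 0.30 ± 0.0308 in the PRMT5 knockdown and by 0.44 ± 0.0313 in the MEP50 knockdown. PSMA6, a subunit of the outer ring, fell by 0.46 ± 0.117 in the PRMT5 knockdown and by 0.45 ± 0.12 in the MEP50 knockdown. Its level was low for a core subunit, at 6.73 to 10.9 CPM per library, while PSMB6 had 127.5 to 158.6 CPM. Whether part of the PSMA6 reads was lost in the counting was not tested.

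Of the transcription factors that act on class I promoters, the class I transactivator and a subunit of NF-kB rose in both knockdowns. Of 26 tested, 12 rose and 4 fell in the PRMT5 knockdown and 12 rose and 7 fell in the MEP50 knockdown, with a median of 0.11 in the PRMT5 knockdown and of 0.08 in the MEP50 knockdown. The list also holds chromatin genes of the Polycomb group, EZH2, EED and SUZ12, which are not transcription factors. EZH2 is counted among the genes that rose in each knockdown, and EED and SUZ12 among those that fell in the MEP50 knockdown. NLRC5, the class I transactivator named above, had 68, 99 and 77 reads in the PRMT5 knockdown libraries, 58, 60 and 58 in the MEP50 knockdown libraries and 39, 46 and 51 in the control libraries. Both knockdowns lay above the control in every library, at 2.77 ± 0.389 CPM in the PRMT5 knockdown and 2.55 ± 0.439 CPM in the MEP50 knockdown, against 1.65 ± 0.17 CPM in the control. The rise was 0.74 ± 0.218 in the PRMT5 knockdown (adjusted p = 0.00411) and 0.61 ± 0.226 in the MEP50 knockdown (adjusted p = 0.022). The call in the MEP50 knockdown was lost without MEP50 knockdown replicates 1 or 2 (0.54 in both) or GFP control replicates 1 (0.57) or 2 (0.56). NFKB1, which encodes the p50 subunit of NF-kB, rose by 0.65 ± 0.0487 in the PRMT5 knockdown and by 0.58 ± 0.0497 in the MEP50 knockdown. The genes of the non-canonical pathway, NFKB2 and RELB, both rose in the PRMT5 knockdown and both fell in the MEP50 knockdown. NFKB2 had 143.1, 146.9 and 142.0 CPM in the libraries of the PRMT5 knockdown, 83.1, 66.8 and 69.2 CPM in the MEP50 knockdown libraries and 109.6, 106.7 and 108.4 CPM in the control libraries, without overlap. It rose by 0.41 ± 0.0489 in the PRMT5 knockdown and fell by 0.57 ± 0.0522 in the MEP50 knockdown. RELB rose by 0.23 ± 0.0753 in the PRMT5 knockdown, but not when GFP control replicate 1 was removed (0.17, adjusted p = 0.0862). It fell by 0.43 ± 0.0809 in the MEP50 knockdown.

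Among the factors of the interferon response, IRF1, which binds the interferon motif of class I promoters, had log2 fold changes of 0.23 ± 0.103 (adjusted p = 0.0549) in the PRMT5 knockdown and 0.26 ± 0.105 (adjusted p = 0.0346) in the MEP50 knockdown. Both lie near the threshold: the first was called without GFP control replicate 1 (0.31, adjusted p = 0.0271) and under library-total scaling (adjusted p = 0.0483). The second was lost under DESeq2 (adjusted p = 0.0633), without the low-count filter (adjusted p = 0.0895), without MEP50 knockdown replicates 1 or 3 (0.24 in both) and without GFP control replicates 2 (0.24) or 3 (0.20). STAT2 fell by 0.35 ± 0.087 in the PRMT5 knockdown and by 0.23 ± 0.0884 in the MEP50 knockdown, where the call was lost without MEP50 knockdown replicates 1 (−0.22) or 2 (−0.14) or GFP control replicate 1 (−0.19). IRF3 fell by 0.29 ± 0.053 in the PRMT5 knockdown and by 0.36 ± 0.0544 in the MEP50 knockdown. ATF1, a factor that binds the CRE-like box, fell by 0.27 ± 0.0657 in the PRMT5 knockdown and by 0.27 ± 0.0671 in the MEP50 knockdown. IRF9, the DNA-binding part of an interferon-activated complex, rose by 0.49 ± 0.101 in the MEP50 knockdown.

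Of 16 tested receptors and signalling genes of the interferon pathway, 2 rose and 4 fell in the PRMT5 knockdown and 4 rose and 2 fell in the MEP50 knockdown, with a median of 0.03 in the PRMT5 knockdown and of −0.02 in the MEP50 knockdown. The inhibitor SOCS3 rose by 0.43 ± 0.0625 in the PRMT5 knockdown and by 0.18 ± 0.0648 in the MEP50 knockdown. The call in the MEP50 knockdown was lost without the low-count filter (0.16) and without MEP50 knockdown replicate 1 (0.16) or GFP control replicates 1 (0.16) or 2 (0.15). The receptor chain IL10RB fell by 0.33 ± 0.0856 in the PRMT5 knockdown and by 0.21 ± 0.087 in the MEP50 knockdown, where it was not called under DESeq2 (−0.22) or without MEP50 knockdown replicates 1 (−0.15) or 3 (−0.22) or GFP control replicate 2 (−0.15). The kinase JAK2 rose by 0.30 ± 0.0825 in the PRMT5 knockdown. In the MEP50 knockdown IFNAR2, a chain of the type I interferon receptor, rose by 0.21 ± 0.0635, and the other chain, IFNAR1, fell by 0.26 ± 0.0462. Interferon-induced genes were called both ways: of 34 tested, 14 rose and 8 fell in the PRMT5 knockdown and 11 rose and 5 fell in the MEP50 knockdown, with a median of 0.12 in the PRMT5 knockdown and of 0.14 in the MEP50 knockdown. GBP3, an interferon-induced GTPase, was at 1.33 ± 0.414 CPM in the PRMT5 knockdown and 2.96 ± 0.0558 CPM in the MEP50 knockdown, against 0.351 ± 0.104 CPM in the control. That was a rise of 1.91 ± 0.345 in the PRMT5 knockdown and of 3.06 ± 0.32 in the MEP50 knockdown. OAS1, a sensor of double-stranded RNA, was at 29.1 ± 1.02 CPM with PRMT5 knocked down and 71.2 ± 1.5 CPM with MEP50 knocked down, against 132.5 ± 4.65 CPM in the control. It fell by 2.19 ± 0.0457 in the PRMT5 knockdown and by 0.90 ± 0.0423 in the MEP50 knockdown. LGALS3BP, a secreted glycoprotein, rose by 0.87 ± 0.0633 in the PRMT5 knockdown and by 0.78 ± 0.0647 in the MEP50 knockdown, and IFI44L by 0.80 ± 0.147 in the PRMT5 knockdown and by 0.58 ± 0.153 in the MEP50 knockdown. The antiviral membrane proteins IFITM2 and IFITM3 rose in both knockdowns. IFITM2 rose by 0.74 ± 0.0743 in the PRMT5 knockdown and by 0.92 ± 0.0748 in the MEP50 knockdown. IFITM3 rose by 0.47 ± 0.137 in the PRMT5 knockdown and by 0.97 ± 0.135 in the MEP50 knockdown. OAS3 fell by 0.30 ± 0.0362 in the PRMT5 knockdown and by 0.27 ± 0.0367 in the MEP50 knockdown, IFIT2 fell by 1.16 ± 0.238 in the PRMT5 knockdown, and IFI35 fell by 0.25 ± 0.084 in the PRMT5 knockdown, but not when GFP control replicate 1 was removed (−0.21), and by 0.43 ± 0.0875 in the MEP50 knockdown.

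**Figure D5:**
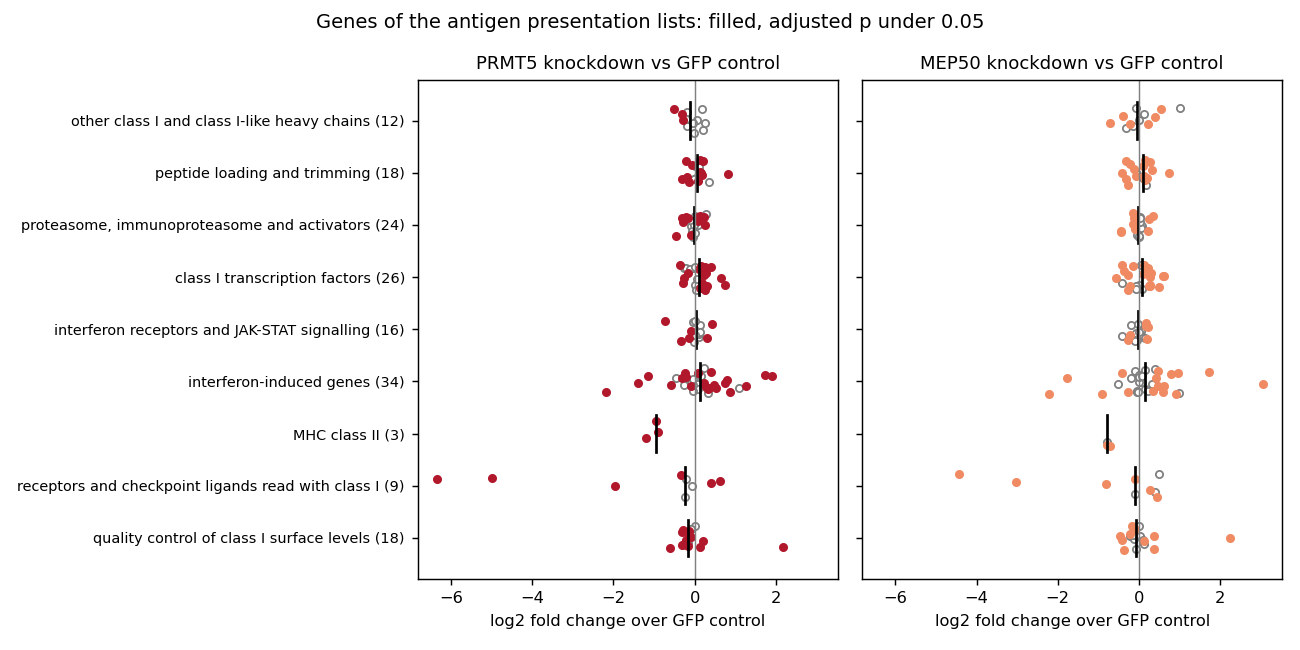
Log2 fold change over the GFP control (horizontal axis) of the tested genes of 9 lists (rows, with the number tested in brackets) in the PRMT5 knockdown (left) and the MEP50 knockdown (right). Each point is a gene, filled points had an adjusted p below 0.05, and the black line is the list's median. The 3 tested genes of the MHC class II pathway list (IFI30, CTSS and HLA-DMA) lie left of 0, with medians of −0.96 in the PRMT5 knockdown and of −0.80 in the MEP50 knockdown, and the interferon-induced genes spread to both sides, from OAS1 at −2.19 to GBP3 at 1.91 in the PRMT5 knockdown.

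Of 14 genes of the MHC class II pathway, which hold class II chains as well as the enzymes and chaperones that act with them, 7 had no read in any library and 3 had enough to be tested, and all 3 of these fell in the PRMT5 knockdown and 2 of them in the MEP50 knockdown. IFI30, a lysosomal thiol reductase, was at 9.74 ± 0.39 CPM in the PRMT5 knockdown and 10.9 ± 0.614 CPM in the MEP50 knockdown, against 19.0 ± 1.44 CPM in the control. It fell by 0.96 ± 0.0924 in the PRMT5 knockdown and by 0.80 ± 0.0938 in the MEP50 knockdown. CTSS, the protease that cleaves the invariant chain, fell by 0.91 ± 0.113 in the PRMT5 knockdown and by 0.71 ± 0.114 in the MEP50 knockdown. HLA-DMA, which was named after its values were seen, fell by 1.20 ± 0.422 in the PRMT5 knockdown (adjusted p = 0.0165) and had a value of −0.80 ± 0.42 in the MEP50 knockdown (adjusted p = 0.111). Its call in the PRMT5 knockdown was lost without PRMT5 knockdown replicates 2 (−1.12) or 3 (−1.17) or GFP control replicates 2 (−1.08) or 3 (−1.02).

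Of 9 tested receptors and checkpoint ligands that act beside class I, 2 rose and 4 fell in each knockdown, with a median of −0.25 in the PRMT5 knockdown and of −0.10 in the MEP50 knockdown. PVR, a ligand of DNAM-1 and TIGIT, was at 180.4 ± 3.60 CPM in the PRMT5 knockdown and 159.6 ± 1.40 CPM in the MEP50 knockdown, against 117.1 ± 1.43 CPM in the control. The rise was 0.62 ± 0.0327 in the PRMT5 knockdown and was 0.45 ± 0.0333 in the MEP50 knockdown. CD47, the signal against phagocytosis, rose by 0.41 ± 0.0495 in the PRMT5 knockdown and by 0.26 ± 0.0508 in the MEP50 knockdown. NECTIN2, another ligand of DNAM-1, fell by 0.34 ± 0.0392 in the PRMT5 knockdown and by 0.10 ± 0.0394 in the MEP50 knockdown, where the call was lost without MEP50 knockdown replicate 1 (−0.07) or GFP control replicate 3 (−0.08). VSIR, which encodes the checkpoint protein VISTA, fell by 1.95 ± 0.117 in the PRMT5 knockdown and by 0.82 ± 0.109 in the MEP50 knockdown. KLRC2, which encodes a natural killer receptor for HLA-E, had 5 reads over the 3 PRMT5 knockdown libraries and 16 over the MEP50 knockdown libraries, against 412 over the control libraries. The ratio of summed levels was 0.0113 (95% counting interval 0.00367 to 0.0267) in the PRMT5 knockdown and 0.0454 (0.0257 to 0.0746) in the MEP50 knockdown. KLRC2 has close paralogs, and how the counting divided reads between them is uncertain.

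Of 18 tested genes that control how much class I reaches or stays on the surface, 3 rose and 10 fell in the PRMT5 knockdown (median −0.17), and 4 rose and 6 fell in the MEP50 knockdown (median −0.08). MARCHF4, a membrane ubiquitin ligase that removes class I when overexpressed, was at 11.1 ± 0.896 CPM in the PRMT5 knockdown and 11.7 ± 0.312 CPM in the MEP50 knockdown, against 2.45 ± 0.426 CPM in the control. It rose by 2.17 ± 0.135 in the PRMT5 knockdown (adjusted p = 3.78e-17) and by 2.24 ± 0.137 in the MEP50 knockdown (adjusted p = 1.72e-17). SEL1L, an organiser of degradation from the endoplasmic reticulum, rose by 0.13 ± 0.0299 in the PRMT5 knockdown and by 0.38 ± 0.03 in the MEP50 knockdown. The clathrin adaptor subunit AP1M1 rose by 0.20 ± 0.0533 in the PRMT5 knockdown and by 0.36 ± 0.0539 in the MEP50 knockdown. SUSD6, which acts with TMEM127 to send class I to lysosomes, fell by 0.60 ± 0.0858 in the PRMT5 knockdown, and TMEM127 fell by 0.31 ± 0.0519 in the PRMT5 knockdown and by 0.18 ± 0.0526 in the MEP50 knockdown. NBR1, an autophagy receptor, fell by 0.32 ± 0.0406 in the PRMT5 knockdown. The degradation enzyme UBE2G2 fell by 0.21 ± 0.05 in the PRMT5 knockdown and by 0.46 ± 0.0519 in the MEP50 knockdown, and SYVN1, the ligase that works with SEL1L, fell by 0.17 ± 0.0654 in the PRMT5 knockdown and by 0.41 ± 0.068 in the MEP50 knockdown. The SYVN1 call in the PRMT5 knockdown was lost without PRMT5 knockdown replicates 1 (−0.15) or 2 (−0.18) or GFP control replicate 2 (−0.12).

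The genes whose centred log2 CPM over the 9 libraries lay closest to each class I gene, among 12339 candidates, were picked by Euclidean distance. For PSMB9 these were DTNA (distance 0.81), HK2 (0.85) and SP140L (0.88). DTNA was at 13.5 ± 1.39 CPM in the PRMT5 knockdown, 6.26 ± 0.647 CPM in the MEP50 knockdown and 2.96 ± 0.725 CPM in the GFP control, the same order of groups as PSMB9. For B2M the nearest were KLHL5 (0.07), CCT5 and TASOR (both 0.08), and for TAP1 they were ZNF684 (0.22), ZNF580 (0.25) and ZNF16 (0.31). All share the 9 libraries, and the genes with the smallest overall change have the smallest distances.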

How the data were processed

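RNA was extracted from A549 cells and stranded libraries were made after removal of ribosomal RNA, per the labels' protocols. The authors' deposited count table gives, for each Ensembl gene, the count of its reads as a whole number. Per the submitters' processing notes, Trim Galore, STAR and HTSeq were used with the hg19 build, and DESeq2 and edgeR for the comparisons. Versions and the strand setting of the counting are not given in the sources used here. The authors' 2 deposited comparison tables hold log2 fold changes, adjusted p-values of DESeq2 and FDR values of edgeR, per the file headers. Their 12 columns of per-sample values were not used.

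The 5 summary lines entered neither the library sizes nor the tests. Reads outside genes came to 11.9 to 14.5% and ambiguous reads to 2.28 to 2.39%. Symbols matched 44822 of 51796 identifiers (86.5%). Counts were tested with edgeR 4.0.16 in R 4.3.3: the 9 libraries were fitted together by group, after filterByExpr (14582 genes kept) and TMM scaling (factors 0.99 to 1.01), with a robust quasi-likelihood test and Benjamini-Hochberg adjustment. Levels are TMM-scaled CPM, and log2 fold changes carry the SE implied by the F statistic. The script was tested on simulated data. Replicate pairs differed by 3.24 to 4.47 times the variance of counting alone, so no 2 libraries were treated as 1.

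Exon lengths, overlaps and shared 50-base words came from GENCODE release 29 (GRCh38), and promoters from RefSeq (GRCh38.p14). The counts were made on hg19, so coordinates are given for the promoter windows only. The IRF-like motifs were chosen after a first motif had missed known sites. Intervals of read ratios are exact, at 95%, and cover counting error only.

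The members, the 9 gene lists and the alternatives were chosen with earlier results of these data known. Named genes are the 9 members, up to 3 called genes per list, direction and comparison by size of change with a mean of at least 1 CPM, the targets, and NLRC5, IRF1, PSMB5, PSMB6, PSMB7 and PSMB10. HLA-DMA was added outside this rule. Some genes that this rule named are not reported here, among them several whose call rested on 1 library. The fits were repeated with each library left out in turn, with 6 libraries at a time, with a block for the replicate number, with DESeq2 1.42.0, without a filter or with a minimum of 1 CPM in 3 libraries, and with RLE, library-total or upper-quartile scaling.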

Additional observations from a re-analysis of the deposited data

Results flagged for a closer look

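PSMB9 and TAPBP were flagged because the effects of the 2 knockdowns differed in a test of the difference itself. That test was the PRMT5 knockdown over the MEP50 knockdown in edgeR's quasi-likelihood test. They are 2 of the 5 tested class I genes, beside 39.7% of all tested genes called in this comparison. Neither was called in that test without PRMT5 knockdown replicate 3 (adjusted p = 0.176 for PSMB9 and 0.133 for TAPBP). The difference was 0.93 on the log2 scale for PSMB9 and 0.23 for TAPBP, higher in all 3 PRMT5 knockdown libraries than in all 3 MEP50 knockdown libraries for both.

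Among the other genes named in the report the same test separated the knockdowns for the following, all as log2 differences of the PRMT5 over the MEP50 knockdown. The rule that named genes also took called genes by size of change from this same comparison. The calls of such genes here were therefore fixed by their choice, and the length of the list is no result. Over all tested genes, 39.7% were called in this comparison. Higher in the PRMT5 knockdown were the NF-kB genes NFKB2 (0.98) and RELB (0.66), LNPEP (0.61), MICB (0.52), HSPA5 (0.40), JAK2 (0.34), THOP1 (0.30), UBE2G2 and SOCS3 (both 0.25), SYVN1 (0.24), IFNAR1 (0.22), PVR (0.18), CD47 (0.15) and PSME4 (0.14). Lower in the PRMT5 knockdown were KLRC2 (−1.92), OAS1 (−1.29), GBP3 (−1.15), VSIR (−1.13), SUSD6 (−0.71), IFIT2 (−0.65), IFITM3 (−0.50), RAET1E (−0.43), IRF9 (−0.28), SEC61B (−0.26), NBR1 and SEL1L (both −0.25), NECTIN2 (−0.24), PSME1 (−0.22), IFITM2 and PSMB6 (both −0.18), PDIA4 (−0.17), AP1M1 (−0.16) and TMEM127 (−0.13). KLRC2 rests on 5 and 16 reads in these groups. NFKB2, RELB, LNPEP and HSPA5 were called in opposite directions by the 2 knockdowns against the same controls.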

How the results depend on the processing

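Each result was recomputed under 17 alternatives. The number of class I genes called in the PRMT5 knockdown against the GFP control was 3 with all libraries and 1 to 3 when each library was left out. In the MEP50 knockdown it was 1, with 0 to 2 when each library was left out, and between the knockdowns it was 2, with 0 to 2. The signs that turned belonged to values that were not called: with 1 library left out, TAP1 in the MEP50 knockdown ran from −0.06 (without MEP50 knockdown replicate 2) to 0.16, PSMB10 there from −0.07 to 0.04 (without MEP50 knockdown replicate 3), and between the knockdowns HLA-E ran from −0.18 to 0.03 (without PRMT5 knockdown replicate 2) and B2M from −0.01 (without PRMT5 knockdown replicate 1) to 0.05. Scaling moved the median of all tested genes by at most 0.02 on the log2 scale. Same-numbered libraries correlated at −0.0361 to 0.0517 in their deviations from the group means, and libraries of different numbers at −0.0544 to 0.0518. The labels do not say whether same-numbered libraries were handled together, and these values cannot show it. With the replicate number as a block, 7423, 7549 and 5759 genes were called in the 3 comparisons and 3, 1 and 2 class I genes, as many class I genes as without it. Low counts limited the precision for HLA-B, HLA-C, TAP2 and PSMB8, with at most 27 reads in all libraries, and for PSMB9, with 255.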
